A study of Mus musculus with 4 samples.

Results

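Border-associated macrophages were picked out of whole-brain single-cell RNA-seq libraries as 82 of 10067 cells that passed the cell filter, out of 12487 deposited barcodes. A cell passed with at least 400 detected genes and at most 20% of its unique molecular identifiers (UMIs, each marking 1 captured transcript) from mitochondrial genes. It was taken as a macrophage when it held at least 1 UMI of 2 or more of 6 macrophage markers (Mrc1, Pf4, Ms4a7, F13a1, Cbr2 and Cd163), of no more than 2 of 5 microglial markers (Tmem119, P2ry12, Siglech, Gpr34 and P2ry13) and of no more than 1 of 5 genes of other brain cells (Cldn5, Flt1, Mog, Aqp4 and Snap25). The cells were thus chosen by their detection of these 16 genes, so the levels of these genes below are a description from which nothing is drawn. The study asked how much of the gene expression seen after enzymatic dissociation of brain arises during the procedure itself. Whole brains of 4 male C57BL/6J mice of postnatal day 90, all from 1 batch by the labels, were dissociated with enzymes, 2 without inhibitors and 2 with a mix of actinomycin D and triptolide, which block transcription, and anisomycin, which blocks translation. The mice carried no transgene that the labels name, the cells were not sorted, and each library held the cells of 1 animal on the 10x Genomics 3′ platform.

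Border-associated macrophages are the resident macrophages of the brain's interfaces: the meninges, the perivascular spaces and the choroid plexus. They take up material from fluid and blood through scavenger and mannose receptors, and some present antigen on MHC class II. They share the receptor Csf1r with microglia, the macrophages of the parenchyma, but lack much of the microglial gene programme. The tissue position of each cell was lost on dissociation, so the marker rule does not say from which border a cell came.

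The macrophages numbered 19 and 24 in the libraries without inhibitors and 16 and 23 in those with inhibitors. Their summed counts were 32240 and 47174 UMIs without inhibitors and 23814 and 33300 with them, and the median cell of each library held 1220.5 to 1762.5 UMIs. Library totals over all barcodes ran from 5134359 to 7529804 UMIs. The chi-square statistic per degree of freedom was 7.81 and 7.24 between libraries of the same treatment and 18.1 to 24.3 between treatments. With 2 libraries a group this statistic cannot show whether 1 library stands apart from its group. The microglia of the second library without inhibitors held 289.4 UMIs of 5 listed erythrocyte genes per 10000 UMIs. Those of the first held 4.84, and those with inhibitors 1.28 and 2.38. The macrophages held 3.72 and 4.88 without inhibitors and 0.84 and 0.901 with them. The part of these genes in the microglial values was not tested. Across libraries 67 barcode sequences occurred more than once, none of them a macrophage, and the doublet score marked 1 macrophage. The median mitochondrial share of the macrophages was 8.297% and 7.881% without inhibitors and 5.495% and 7.136% with them, whereas that of microglia was 3.93% to 4.488%.

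Most of the cells carried macrophage genes that the rule did not use, but a minority went against the label in part and are set out first. A set of 7 genes that mark myeloid cells or macrophages in general were found in most of the 82 cells: the lysozyme gene Lyz2 in 96.3%, the adaptor Tyrobp in 96.3%, the complement gene C1qa in 95.1%, the growth factor receptor Csf1r in 84.1%, the endocytic adaptor Dab2 in 73.2%, the scavenger receptor Stab1 in 69.5% and the transcription factor Maf in 69.5%. In 16 cells at least 6 UMIs of the MHC class II genes H2-Aa, H2-Ab1 and H2-Eb1 were counted, and 7 of these also held Ccr2, the chemokine receptor of blood monocytes. The counts of called genes, the share of macrophages and the values that moved most are given below with and without these cells. Of the 40 Ccr2 UMIs, 1 was in the first library without inhibitors and 39 were in 6 cells of the second, with none in either library with inhibitors. The monocyte genes Ly6c2 and Chil3 had no UMI in any of the 82 cells, and none of the neutrophil, T and natural killer cell or mast cell markers listed was found. Of 6 monocyte genes listed 4 were found, with 44 UMIs in 8 cells, and of 4 B cell genes 1 was found, with 1 UMI. Of 6 dendritic cell genes 3 were found, with 14 UMIs in 10 cells, or 2.48 and 0.636 per 10000 UMIs without inhibitors and 0 and 0.901 with them, against 0.0275 to 0.046 in microglia. Xcr1, Clec9a and Ccr7 were at 0. The part of these markers in the results was not tested. One further cell, in the first library with inhibitors, held 71 UMIs of Acta2, 48 of Myl9, 29 of Tagln and 23 of Tpm2, which are contractile genes of smooth muscle and pericytes, with 1 UMI each of Ms4a7 and Cbr2 and none of Lyz2, C1qa or Csf1r. It had entered through that pair of single UMIs. Neuronal genes had 12 UMIs in 10 cells and endothelial genes 17 in 15 cells. Astrocyte genes had 81 UMIs in 38 cells, at 2.94 to 10.2 per 10000 UMIs against 6.67 to 8.35 in microglia. The oligodendrocyte genes Mog, Mag, Mobp and Cldn11 had 38 UMIs in 16 cells, at 1.86 and 0.636 per 10000 without inhibitors and 0.42 and 8.41 with them, against 1.9 to 2.97 in microglia. The second library with inhibitors was the highest for both lists, and their part in the results was not tested.

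**Figure D1:**
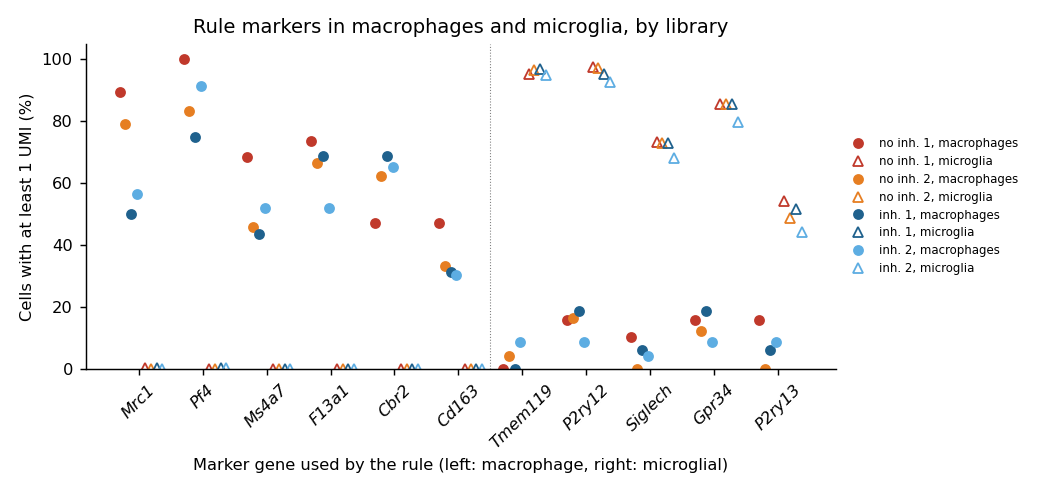
Percent of cells with at least 1 UMI of each of the 6 macrophage and 5 microglial markers of the rule, by library, in the macrophages (filled circles) and in the microglia (open triangles). The macrophages lie high for Pf4 (87.8% over all 4 libraries) and low for Tmem119 (3.66%), as the rule made them, and the microglia lie the other way round.

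Among the 6 macrophage markers, Pf4, the gene of the chemokine platelet factor 4, was found in the most cells: 19 of 19 and 20 of 24 without inhibitors, and 12 of 16 and 21 of 23 with them. Mrc1, the mannose receptor, was found in 17 and 19 cells without inhibitors and in 8 and 13 with them. The coagulation factor gene F13a1 was found in 64.6% of the 82 cells, the carbonyl reductase gene Cbr2 in 61.0%, the membrane protein gene Ms4a7 in 52.4% and the haemoglobin scavenger receptor Cd163 in 35.4%. In astrocytes (1185 cells with Aqp4), which should lack both genes, Mrc1 was found in 0.169% and Pf4 in 0.506%. Ttr, a choroid plexus gene and a frequent source of free RNA in droplets, was found in 97.6% of the macrophages, 97.5% of the microglia and 98.5% of the astrocytes. The part of free RNA in these shares was not tested. Of the microglial markers, P2ry12, an ADP receptor, was the most frequent, in 14.6% of macrophages against 95.6% of microglia.

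At the lower limit of the rule, 22 macrophages held exactly 2 of the 6 markers, and of these 90.9% had Lyz2, 50% Dab2 and 90.9% Tyrobp. Just outside it, 52 cells with exactly 1 marker passed the other criteria, and 50% of these had Lyz2, 17.3% Dab2, 48.1% Tyrobp and 21.2% the astrocyte gene Aqp4. In the 60 macrophages with 3 or more markers these shares were 98.3% for Lyz2 and 81.7% for Dab2. At the microglial limit 5 macrophages held exactly 2 of the microglial markers, and 3 cells with exactly 3 were left out. The limit on other cell types left out 7 cells.

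The macrophages differed from the 2982 microglia of the same libraries (cells with at least 3 microglial and at most 1 macrophage marker) in many genes outside the rule. Levels are CPM, the UMIs of a gene in the summed cells relative to the sum of all their UMIs, scaled by the trimmed mean of M values within each cell type. The comparison is a description with no test, because the rule separated the cells. Of 854 genes with at least 20 UMIs in macrophages and 1 in every library, Wfdc17, a small secreted protein gene of activated macrophages, had the highest mean log2 ratio to microglia, 5.48, with 50 CPM added to each level. Its level was 1440.4 to 3184 CPM in macrophages and 3.72 to 5.91 CPM in microglia. Uptake and lipid genes were also among those with high ratios. Lyz2 reached 6012 to 12428 CPM against 291 to 490.0 CPM, the lipid carrier Apoe 23987 to 32252 CPM against 933 to 1319 CPM, and Dab2 967 to 1754 CPM against 10.8 to 25.1 CPM. The ranges of the cell types did not overlap for any of these. The growth factor Igf1 stood at 249.7 to 316 CPM against 1.58 to 1.97 CPM, and the fatty acid receptor Cd36 at 178 to 375 CPM against 0 to 1.58 CPM.

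Antigen presentation and interferon-inducible genes made up another group among the 25 highest ratios. Cd74, the MHC class II invariant chain, had a log2 ratio of 5.20, H2-Aa of 4.82, H2-Eb1 of 4.34 and H2-Ab1 of 3.92, with most of their UMIs in the minority of cells described below. The interferon-inducible genes Ifitm3, Ifitm2, Ifi27l2a and Ifi203 had log2 ratios of 3.78, 3.70, 3.56 and 2.58. Lectins and receptors typical of border macrophages, namely the hyaluronan receptor Lyve1 (3.04), the C-type lectins Clec4n (2.54) and Clec10a (2.39) and the folate receptor Folr2 (2.37), were also among the 25. At the other end, the matrix protein Sparc was at 93.9 to 249.7 CPM in macrophages and 1577 to 1790.2 CPM in microglia, the receptor Tgfbr1 at 43.0 to 219 against 1134 to 1338 CPM, and the protease inhibitor Cst3 at 8541 to 9805 against 49388 to 58715 CPM. Sall1, a transcription factor of microglial identity, had no UMI in the 82 macrophages, which allows cells with a UMI, not cells that express the gene, a share of up to 3.66%, and it was found in 31.9% of microglia. Tyrobp overlapped between the cell types, at 3350.4 to 3526 CPM in macrophages and 3365 to 3719.9 CPM in microglia.

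The macrophages were not uniform, and the MHC class II genes divided them. The summed UMIs of H2-Aa, H2-Ab1 and H2-Eb1 were 0 in 64 cells, 1 in 2 cells and 6 to 152 in the remaining 16. The limit of 6 was set after these values were seen, so the cells on either side of it are described and not tested. No cell fell between 1 and 6. Cd74 was found in all 16 of the MHC class II cells, with 1097 UMIs, and in 7 of the 66 others, with 16 UMIs. Cd52, a lymphocyte and monocyte surface protein gene, was found in 14 of 16 against 8 of 66 cells.

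The 16 MHC class II cells held no UMI of several genes typical of perivascular and meningeal macrophages. Lyve1 was found in 0 of 16 against 22 of 66 cells, Folr2 in 0 against 17, Clec4n in 0 against 28, and the C-type lectins Cd209f and Cd209g in 0 against 8 each. At least 1 of these 5 genes was found in 44 of the 66 cells and in 0 of the 16. That 0 allows a share of up to 18.8% for cells with a UMI, not for cells that express one. Clec4n and Cd209g were picked after their values were seen, so the 0 was in part set by that choice. The iron exporter Slc40a1 was found in 0 of 16 against 20 of 66. The median depth was 2187 UMIs in the MHC class II cells and 1252 in the others. Of the rule's markers, Mrc1 was shared (11 of 16 and 46 of 66), and Pf4 was found in 10 of 16 and 62 of 66, Cbr2 in 3 of 16 and 47 of 66 and Stab1, not a rule gene, in 6 of 16 and 51 of 66. Of the 16 cells, 10 had only 2 of the 6 macrophage markers, against 12 of the 66.

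**Figure D2:**
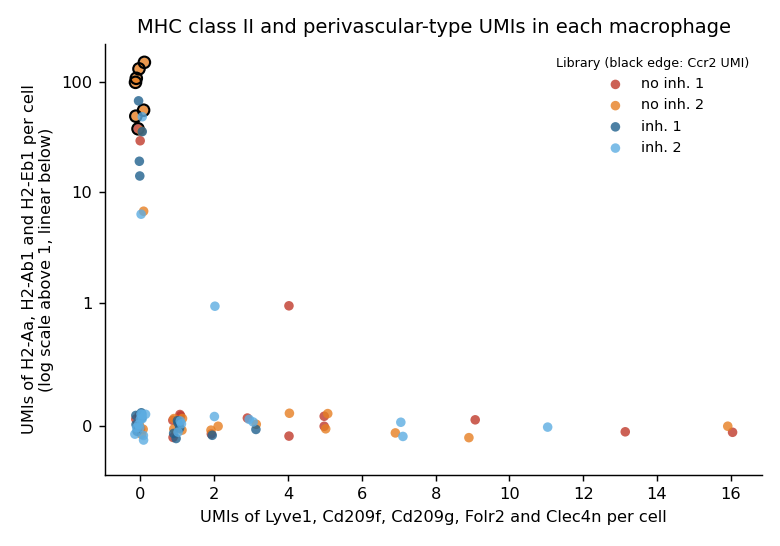
Each point is 1 macrophage: summed UMIs of H2-Aa, H2-Ab1 and H2-Eb1 (vertical, log scale above 1 and linear below) against summed UMIs of Lyve1, Folr2, Clec4n, Cd209f and Cd209g (horizontal), coloured by library, points with Ccr2 outlined in black and all points moved slightly apart at random. The 16 cells at 6 or more MHC class II UMIs all lie at 0 for the other 5 genes, of which Clec4n and Cd209g were picked after their values were seen.

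The MHC class II cells were 2 of 19 and 8 of 24 macrophages without inhibitors and 4 of 16 and 2 of 23 with them, or 10.5%, 33.3%, 25% and 8.7%. The libraries of each treatment differed more than the treatments did (mean 21.9% ± 16.1 against 16.8% ± 11.5, SD, n = 2 each, exact two-sided permutation p = 0.667). The level of Cd74 was highest where the share was highest, at 2254 and 14558 CPM without inhibitors and 8944 and 2966 CPM with them. That of H2-Aa was 1158, 5346, 2322 and 874 CPM in the same order. H2-Ab1 and H2-Eb1 were also highest in the second library without inhibitors. Lyve1 was found in 10 of 19 and 6 of 24 cells without inhibitors and in 1 of 16 and 5 of 23 with them. Its level was 752 and 394 CPM against 129 and 406 CPM, and the groups overlapped (log2 fold change 0.97, SE 0.55, adjusted p = 0.995, edgeR quasi-likelihood test with Benjamini-Hochberg adjustment). Fold changes here are without over with inhibitors throughout.

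The share of macrophages among the cells that passed did not separate the treatments beyond counting error. It was 0.846% (95% exact binomial interval 0.51% to 1.32%) and 0.851% (0.546% to 1.26%) without inhibitors, and 0.753% (0.431% to 1.22%) and 0.8% (0.508% to 1.2%) with them. The difference of the means, 0.848% ± 0.0041 against 0.776% ± 0.0331 (SD, n = 2 each), was 0.0721 percentage points, and the exact two-sided permutation p of 0.333 is the smallest that 2 animals against 2 can give. Without the 7 Ccr2 cells the difference was -0.06 percentage points (0.72% against 0.776%), the opposite sign. As a share of macrophages and microglia together they made up 2.73%, 2.81%, 2.38% and 2.74%. The intervals cover counting error only.

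The macrophages dissociated without inhibitors held higher levels of a small set of early-response genes. Counts of the macrophages of each animal were summed and 421 genes that passed the edgeR filter were tested, the animal being the replicate (n = 2 each). Of these, 4 genes were called higher without inhibitors (0.95% of those tested, the limits being 0.05 for the adjusted p and 0.58 for the size of the log2 fold change), and 0 were called lower (0.0%), while 23 genes had an unadjusted p under 0.05. All 4 are immediate early genes or their feedback regulators, the genes that stressed or stimulated cells switch on within minutes. DESeq2 called 1 of them, Fos, and no gene lower. The 6 macrophage markers of the rule were among the 421 genes, since the fit was made on the whole table. None of them was called, and they are left out of the gene lists below. The count moved with the cells and libraries that entered. It was 12 higher and 1 lower without the 16 MHC class II cells, 13 and 4 without the 7 Ccr2 cells, and 6 and 1 without the Acta2 cell. The 12 included the rule's marker Mrc1 and the 13 included Mrc1 and Pf4. The rule chose the cells by these genes, so nothing is drawn from whether they were called. It was 4 higher and 1 lower without the first library without inhibitors, 10 and 4 without the second, 9 and 3 without the first library with inhibitors and 5 and 8 without the second.

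Fos, which encodes a subunit of the transcription factor AP-1 (ENSMUSG00000021250), had 65 and 68 UMIs without inhibitors and 2 and 0 with them. Its level was 2035 and 1341 CPM against 86.0 and 0 CPM, where the 0 allows up to 93.6 CPM, so that the means were 1688 ± 491 and 43.0 ± 60.8 CPM (log2 fold change 5.38, SE 0.74, edgeR adjusted p = 0.00632). Fos was found in 10 and 9 cells without inhibitors and in 2 and 0 with them. Dusp1, a phosphatase that shuts off MAP kinases (ENSMUSG00000024190), was at 939 and 651 CPM against 43.0 and 0 CPM (log2 fold change 5.17, SE 0.78, edgeR adjusted p = 0.00753), from 30, 33, 1 and 0 UMIs. Its 64 UMIs lay in 12 cells, of which 1 held 31.2% and the highest 3 held 59.4%. Dusp1 did not pass the filter without the MHC class II cells, nor without the cell highest for the 4 called genes in each library without inhibitors. Zfp36, which encodes tristetraprolin, a protein that marks cytokine mRNAs for decay (ENSMUSG00000044786), was at 971 and 533 CPM against 0 and 93.6 CPM (log2 fold change 3.69, SE 0.73, edgeR adjusted p = 0.0402). Junb, another AP-1 subunit (ENSMUSG00000052837), was at 1221 and 789 CPM against 86.0 and 187 CPM (log2 fold change 2.76, SE 0.55, edgeR adjusted p = 0.0402). For each of the 4 genes both animals without inhibitors lay above both with them, as was true of 81 of the 421 genes tested (19.2%). Fos was called under all 20 other settings tried, Dusp1 under 17 of the 18 in which it passed the filter, and Zfp36 and Junb under 16 of 20. Zfp36 was not called without the first library without inhibitors (adjusted p = 0.383), nor Junb without the first library with inhibitors (adjusted p = 0.163).

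**Figure D3:**
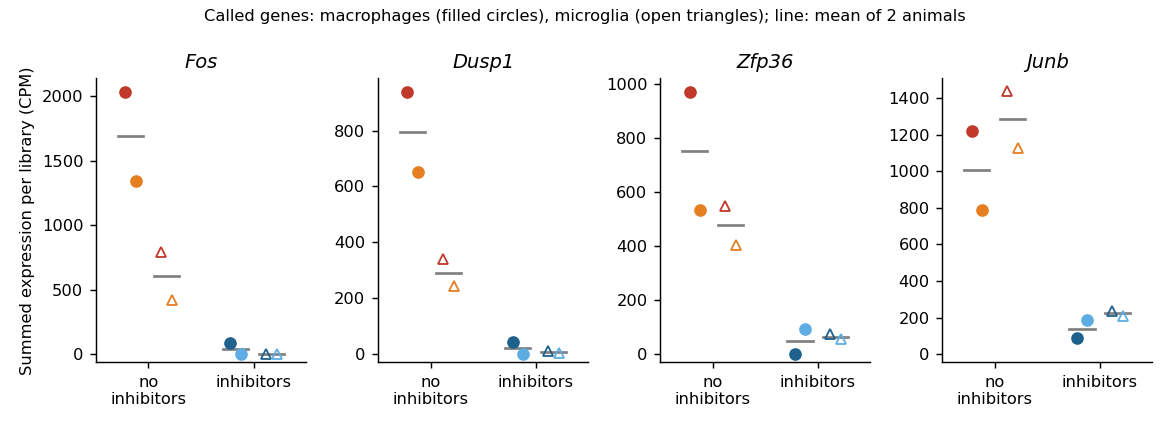
Level in CPM of the summed counts (linear axis) of the 4 called genes in the macrophages (filled circles) and the microglia (open triangles) of each library, with the mean of the 2 animals as a line. Points are the 4 animals, and the 2 without inhibitors lie above the 2 with them for each gene in both cell types.

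The 250 bases before the transcription start of the 4 genes are shown because these genes moved together and genes of this class are classical targets of CREB and serum response factor. The sequences and starts are those of RefSeq on GRCm38.p6, in the direction of transcription: Fos at chr12:85473640-85473889 on the plus strand, Dusp1 at chr17:26508473-26508722, Zfp36 at chr7:28379229-28379478 and Junb at chr8:84978749-84978998, all 3 on the minus strand. Capitals mark matches to TGACGTCA (the full cAMP response element), TGACGT (its shorter form, which lies within the full one), TGANTCA (the AP-1 site), TATAAA (the TATA box) or the CArG box of serum response factor, searched on both strands.
Fos: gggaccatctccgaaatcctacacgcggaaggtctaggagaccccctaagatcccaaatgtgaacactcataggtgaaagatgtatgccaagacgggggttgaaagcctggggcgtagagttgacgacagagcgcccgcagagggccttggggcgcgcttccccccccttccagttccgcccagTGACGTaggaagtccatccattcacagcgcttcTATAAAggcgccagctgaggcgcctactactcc
Dusp1: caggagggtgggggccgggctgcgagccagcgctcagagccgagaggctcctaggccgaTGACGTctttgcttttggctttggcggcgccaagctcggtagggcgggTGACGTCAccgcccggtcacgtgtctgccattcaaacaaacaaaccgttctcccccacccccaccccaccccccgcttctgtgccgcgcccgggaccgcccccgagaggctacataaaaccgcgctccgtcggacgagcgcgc
Zfp36: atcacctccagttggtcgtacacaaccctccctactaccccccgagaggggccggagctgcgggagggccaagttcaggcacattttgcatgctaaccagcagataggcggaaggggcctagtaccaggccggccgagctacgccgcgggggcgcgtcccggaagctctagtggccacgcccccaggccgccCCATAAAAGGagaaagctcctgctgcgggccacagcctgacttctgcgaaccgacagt
Junb: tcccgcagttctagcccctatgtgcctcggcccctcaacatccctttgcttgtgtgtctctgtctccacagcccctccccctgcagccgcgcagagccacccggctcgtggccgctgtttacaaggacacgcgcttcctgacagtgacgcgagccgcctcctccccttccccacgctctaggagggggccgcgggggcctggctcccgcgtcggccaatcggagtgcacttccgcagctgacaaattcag
Dusp1 held the full cAMP response element 143 to 136 bases before the start and a short one 191 to 186 bases before it. Fos held a short one 66 to 61 bases and a TATA box 33 to 28 bases before the start, and Zfp36 a CArG box 58 to 49 bases before it. Junb held none of the 5 motifs in this window. Over 32851 RefSeq windows of the same length, 1.55% held the full cAMP response element, 6.47% the short one, 6.75% the AP-1 site, 12.4% the TATA box and 1.47% the CArG box. The AP-1 site was in 0 of the 4 windows. A match describes the letters of the window and was not tested as a binding site.

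The signature was spread over many of the cells without inhibitors, with a few cells holding large shares of it. At least 1 UMI of Fos, Dusp1, Zfp36 or Junb was found in 12 of 19 and 16 of 24 macrophages without inhibitors and in 4 of 16 and 3 of 23 with them. After thinning each cell to 1000 UMIs, which left out 4, 6, 5 and 6 shallower cells, the shares were 70.1% and 59.2% against 22.4% and 12.2% (64.7% ± 7.67 against 17.3% ± 7.23, SD, n = 2 each). The groups did not overlap, and the exact permutation p was 0.333, the smallest possible. The 4 genes had been called higher in these same cells, so that separation was largely fixed in advance and is no support. For the study's 25 dissociation-induced genes, which include the 4, the shares at that depth were 98.0% and 89.9% against 83.0% and 71.8%. Their means were 94.0% ± 5.77 and 77.4% ± 7.91 (SD, n = 2 each, exact permutation p = 0.333). Of the 43 macrophages without inhibitors 15 held none of the 4 genes, 6 held 1, 9 held 2, 7 held 3 and 6 held all 4. With inhibitors 32 of 39 held none, 6 held 1 and 1 held 2. The mean over cells was 4.31 and 3.40 UMIs of the 4 genes per 1000 UMIs without inhibitors and 0.166 and 0.199 with them. The highest single cell held 41 of the 165 UMIs of the 4 genes in the first library without inhibitors and 61 of 168 in the second. UMIs of the 4 genes were found in 7 of 10 MHC class II cells and 21 of 33 others without inhibitors, shares that were not matched for depth.

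**Figure D4:**
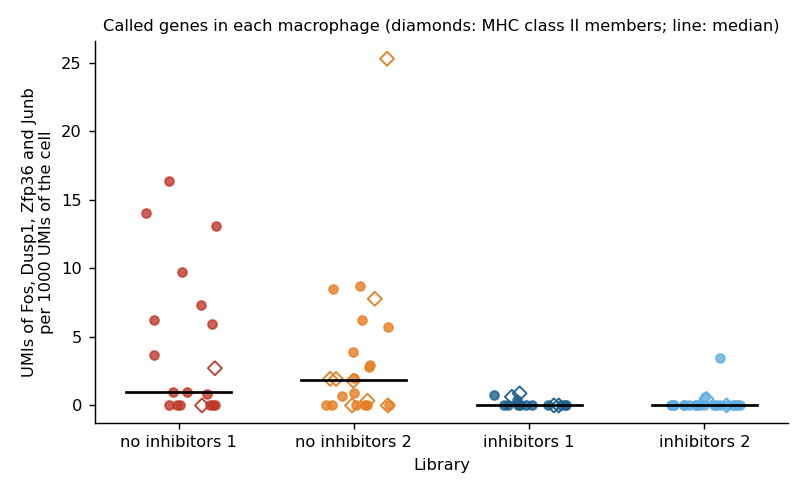
UMIs of Fos, Dusp1, Zfp36 and Junb per 1000 UMIs in each macrophage, by library, with the median of each library as a line and MHC class II cells as open diamonds. The medians lie above 0 without inhibitors and at 0 with them, where 32 of 39 cells held none of the 4 genes.

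Other early genes had large differences that the test did not call. Ier2, a small immediate early gene, was at 845 and 355 CPM against 129 and 62.4 CPM (log2 fold change 2.61, SE 0.66, edgeR adjusted p = 0.127). Btg2, an antiproliferative early gene, was at 814 and 316 against 86.0 and 0 CPM (3.75, SE 0.94, edgeR adjusted p = 0.127), and Jun at 1534 and 612 against 215 and 0 CPM (3.44, SE 1.01, edgeR adjusted p = 0.461). All 3 lay apart between the treatments in the same direction as the called genes. Ier2 was called under 11 of the 18 other settings in which it passed the filter, Btg2 under 10 of 18 and Jun under 10 of 20, and none of the 3 without the first library without inhibitors. Without the MHC class II cells their log2 fold changes were 3.28, 4.52 and 3.71 (edgeR adjusted p = 0.000439, 0.00151 and 1.95e-05). The log2 fold changes of the related genes Jund and Btg1 were 1.44 (edgeR adjusted p = 0.843) and -0.11 (edgeR adjusted p = 0.995). Of 31 listed AP-1 and immediate early genes, 7 passed the filter, 2 were called and 6 had a positive fold change, with a median log2 fold change of 2.76 against 0.03 over all 421 genes. The next list is the study's own set of dissociation-induced genes, drawn from sorted microglia of other animals. Of 25 genes on it 7 passed the filter, the 4 called genes among them. All 7 had a positive fold change, 4 were called against 0.95% of all genes tested, and 6 lay apart against 19.2%, with a median of 3.44. Fos, Dusp1, Zfp36, Junb and Jun held at most 6 UMIs in a library with inhibitors and passed the filter through the other group. The same was true of Ier2 and Btg2 on the AP-1 list. Signs, medians and the counts called or lying apart were thus in part set by the filter in both lists. Their called genes are those already counted above. None of these values is support for a direction or for an excess in the lists. The UMIs of the dissociation-induced list per 10000 were 118.8 and 68.7 without inhibitors and 20.2 and 15.9 with them, and in the microglia of the same libraries 121.8, 80.8, 23.4 and 21.2. A further list was drawn by the study from these same libraries and is therefore no independent evidence of direction. Of 19 genes on it 6 were tested and 4 called, with a median of 3.72 (0.03 over all 421).

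Among feedback regulators, 6 of 19 listed genes passed the filter and the called genes were Dusp1 and Zfp36, while Zfp36l1 (log2 fold change 0.83), Dusp6 (0.13) and Zfp36l2 (0.17) were not called. Cd83, a surface protein of activated antigen-presenting cells on the same list, had the opposite sign, at 31.3 and 178 CPM without inhibitors and 473 and 499.5 CPM with them (log2 fold change -2.02, SE 0.66, edgeR adjusted p = 0.456). Its 37 UMIs lay in 13 cells, and the highest cell held 35.1% of them.

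Chemokine genes were carried by few cells. Ccl2, the monocyte-attracting chemokine, had 57 and 18 UMIs without inhibitors and 1 and 2 with them, at 1785 and 355 against 43.0 and 62.4 CPM (log2 fold change 4.16, SE 1.12, edgeR adjusted p = 0.439). It was called under 9 of the 17 other settings in which it passed the filter, among them those without the MHC class II cells (4.72, edgeR adjusted p = 1.93e-06) and without the Ccr2 cells (4.44, edgeR adjusted p = 1.61e-08). Only 11 of the 82 macrophages held it, and 1 cell held 62.8% of its UMIs. That cell, from the first library without inhibitors, held 49 UMIs of Ccl2, 54 of Ccl7, 10 of Fos, 10 of Dusp1, 9 of Zfp36 and 12 of Junb among 2507. Ccl7, a close relative of Ccl2, was at 1785 and 907 against 516 and 0 CPM (2.51, adjusted p = 0.995) and found in 9 cells, and it was called under 5 of 20 other settings. Ccl12 and Ccl6 had log2 fold changes of -0.18 and 0.77 (adjusted p = 0.995 each). Several inflammatory genes under the filter, picked after their values were seen, had UMIs without inhibitors and none with them: Cxcl2 had 8 and 8 UMIs, all in 2 cells, Ccl4 had 13 and 0, Atf3 had 8 and 5, the cytokine gene Il1b had 2 and 5, and Nfkbiz had 3 and 5. Ccl3 had 21 and 8 UMIs without inhibitors and 0 and 1 with them. The chemokine gene Ccl8, also under the filter, went the other way, with 35 UMIs in 9 cells. Its log2 fold change was -3.07 to -1.8 over the 4 other settings in which it was tested. The share of all genes with UMIs in only 1 treatment is not given here. None of the 4 chemokines tested, of 25 listed cytokines and chemokines, was called, and their median log2 fold change was 1.64.

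Malat1, a nuclear long noncoding RNA, had the lowest p among the genes not called. It was at 26835 and 22724 CPM without inhibitors and 46486 and 53910.2 CPM with them (log2 fold change -1.02, SE 0.24, edgeR adjusted p = 0.127). It was called lower under 11 of 20 other settings, with log2 fold changes of -1.23 to -0.56 over the 20. The groups did not overlap, as for 52 of 421 genes in this direction (12.4%). Microglia held 64059 to 73787 CPM and their fitted change was -0.12 on the log2 scale (edgeR adjusted p = 0.868). The median mitochondrial share, a sign of RNA quality, was lower in both libraries with inhibitors, and its part in the Malat1 values was not tested. For the histone gene H3f3b the log2 fold change was 1.02 (edgeR adjusted p = 0.456), and for the cytoskeletal genes Tmsb10 and Tubb5 it was 1.73 and 1.46 (0.461 for both). Myl6, a myosin light chain gene, was at 564 and 473 CPM against 2236 and 624 CPM (-1.44, SE 0.56, edgeR adjusted p = 0.841). One cell held 42.1% of its UMIs, and without the cell with 71 Acta2 UMIs its log2 fold change was 0.25, the opposite sign (adjusted p = 0.997).

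Of the genes that give the macrophages their functions, none was called with all 82 cells. Of 20 tested genes from a list of 38 border macrophage genes that the rule did not use, 11 had a positive and 9 a non-positive fold change, with a median of 0.06. Apoe was at 32252 and 23987 CPM without inhibitors and 28683 and 24286 CPM with them (log2 fold change 0.09, SE 0.25). Of 6 tested scavenger and endocytic receptor genes that the rule did not use 5 had a positive fold change and none was called (median 0.29). In the complement list the 4 tested genes had a median of -0.06, with C1qa at 6544 and 4754 against 5891 and 5650.1 CPM. In the lysosomal list the 16 tested genes had a median of -0.03, the highest value being that of the growth factor precursor Grn (0.95, edgeR adjusted p = 0.917). The 3 iron and haem genes outside the rule, among them the ferritin light chain gene Ftl1 at 11095 to 14890.1 CPM, had a median of -0.20, and the 6 growth and survival genes, which include Csf1r, of 0.08. The 6 MHC class II genes had a median of 0.69, the 3 interferon-inducible genes of 0.89, the 4 MHC class I genes of 0.25, the 3 heat shock genes of 0.46, the 3 Fc receptor genes of 0.26 and the 3 lineage transcription factors of 0.45, and none of their members was called. None of the 16 listed histone genes passed the filter.

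Some of these values moved with the MHC class II and Ccr2 cells. Without the 16 MHC class II cells Grn (log2 fold change 1.27, edgeR adjusted p = 0.00895) and the interferon-inducible gene Ifi27l2a (1.21, edgeR adjusted p = 0.0318) were called higher, and the medians of the complement and lysosomal lists were 0.29 and 0.18. Without the 7 Ccr2 cells Grn was called higher (1.27, edgeR adjusted p = 0.00726), whereas Lyz2 (-0.63, edgeR adjusted p = 0.0161), H2-Aa (-1.39, edgeR adjusted p = 0.00732) and H2-Eb1 (-1.81, edgeR adjusted p = 0.00289) were called lower. With all 82 cells the log2 fold changes of H2-Aa and H2-Eb1 were 1.07 and 0.87, and the median of the MHC class II list went from 0.69 to -1.74 without the Ccr2 cells, the opposite sign. Of the 40 Ccr2 UMIs all were in libraries without inhibitors, and the part of these cells in the values was not tested.

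**Figure D5:**
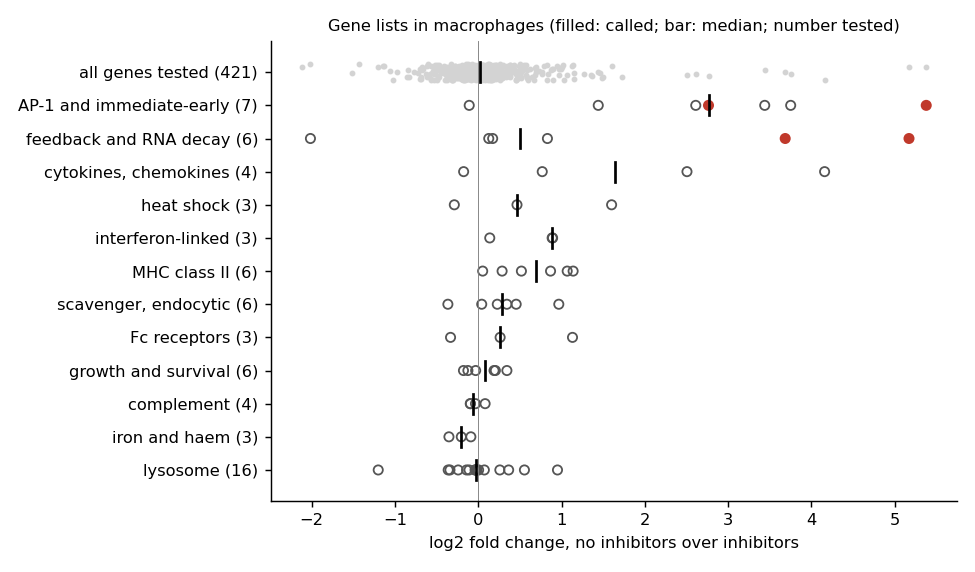
Log2 fold change (without over with inhibitors) of each tested gene in the macrophages, by gene list, with a bar at each median, called genes filled, and all 421 tested genes in grey at the top (median 0.03). The 4 called genes lie at 2.76 to 5.38, while the medians of the complement, iron and haem, lysosome and growth lists lie between -0.20 and 0.08. The 6 macrophage markers of the rule are left out of the lists.

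Microglia of the same animals were fitted in the same way to set the macrophages beside them. In microglia 31 of 8541 genes were called higher without inhibitors (0.363%), with deeper summed counts of 990804 to 1303514 UMIs. Dusp1 was at 339 and 244 CPM in microglia without inhibitors against 10.8 and 2.72 CPM with them (log2 fold change 5.43, edgeR adjusted p = 1.42e-05), Zfp36 at 549 and 404 against 72.9 and 54.4 CPM (2.90, adjusted p = 4.87e-08) and Junb at 1440.3 and 1128 against 237 and 209 CPM (2.53, adjusted p = 1.09e-11). Fos in microglia was at 795 and 417 against 3.94 and 2.72 CPM (7.46, SE 0.90, edgeR adjusted p = 0.604) and was not called. That SE comes from the F statistic alone and does not carry the degrees of freedom on which the p rests, so SE and p do not match. Both libraries without inhibitors lay far above both with them, a difference in levels that the test did not call. Without inhibitors, Fos was at 1341 to 2035 CPM in macrophages and at 417 to 795 CPM in microglia. Ier2 was at 355 to 845 and 137 to 178 CPM, and Dusp1 at 651 to 939 and 244 to 339 CPM. These 3 genes did not overlap between the cell types, whereas Junb and Zfp36 did. The levels were scaled within each cell type and the share of all genes without such overlap is not given, so nothing is drawn from them. At 1000 UMIs per cell the 4 genes were found in 53.9% and 51.1% of microglia without inhibitors and 27.8% and 22.1% with them.

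No gene showed a difference in inhibitor effect between macrophages and microglia that passed the test. In a single fit over both cell types with the animal as a block, 408 genes were tested for the difference, 0 were called (0.0%), 15 had an unadjusted p under 0.05, and DESeq2 called 1, Malat1. Leaving out the first library without inhibitors gave 4 calls (H2-Aa, H2-Ab1, H2-Eb1 and Malat1), and leaving out each of the other libraries gave 1. Malat1 was also called without the MHC class II cells, without the Ccr2 cells and without the Acta2 cell. The differences in log2 fold change, macrophages minus microglia, were -1.88 (SE 1.24) for Fos, -0.05 (SE 1.04) for Dusp1, 0.83 (SE 0.85) for Zfp36 and 0.25 (SE 0.62) for Junb, each with an edgeR adjusted p of 0.991. An SE of 1.24 on the log2 scale leaves room for a large difference in either direction for Fos. The lowest p was that of Cd83, whose effect differed by -2.51 (SE 0.72, edgeR adjusted p = 0.218), with 102 to 152 CPM in microglia of all 4 libraries. Malat1 followed at -0.89 (adjusted p = 0.238), and Tmsb10 at 1.89 (0.462) and Myl6 at -1.25 (0.469) were also among the 5 genes with the lowest p.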

How the data were processed

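Single-cell RNA-seq of whole mouse brain was deposited for 4 animals, 2 per treatment, as 1 matrix of counts each. The authors made these UMI counts with Cell Ranger 3.0.0 on mm10 (GRCm38), as the submitters' processing notes list them, and the deposited counts are whole numbers per gene and barcode that were not normalised. No further cell annotation was used here.

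Barcodes were filtered and chosen by the marker rule given above. The members, gene lists and tests were chosen with earlier results of these data known. Counts were summed per animal and cell type and tested with edgeR 4.0.16 (filterByExpr, TMM, robust glmQLFit and glmQLFTest, Benjamini-Hochberg over all genes tested) in R 4.3.3. The difference between cell types was tested as an interaction with the animal as a block. The limits for a call were those given above. Shares were compared with exact permutation tests in Python 3.11.15 with scipy 1.17.1. SEs are the log2 fold change divided by the root of the F statistic, and do not carry the degrees of freedom on which the p rests. A doublet score against 2 simulated doublets per cell marked 256 cells (2.54%), which were kept. Both edgeR fits were tested on simulated data. Alternatives used DESeq2 1.42.0, other size factors, filters, cells and left-out libraries.

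Levels in CPM used the edgeR normalisation factors. Named genes were all called genes, the 10 lowest p among the others, the rule's genes, the 25 highest and 10 lowest ratios to microglia, the lowest-p interactions and leading members of the lists. Sall1, Cd52, Cd209g, Clec4n, Slc40a1, the Acta2 cell's genes and the unfiltered inflammatory genes were picked after their values were seen. Some genes that the rule would name are not reported here. Replicate numbers were not used as pairs in the main fit, as the same numbers' deviations correlated at -0.14 over 421 genes. With 2 animals a group this value cannot exclude a pairing. The labels give each library to its own sample, and p-values measure the spread between 2 animals a group. The low depth of 23814 to 47174 UMIs per macrophage sum limits the genes that could be tested.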

Additional observations from a re-analysis of the deposited data

How the results depend on the processing

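With 2 animals a group and 16 to 24 macrophages each, the count of genes called in macrophages moved with many settings, and the cause was not tested. It was 1 higher with DESeq2, 14 without a filter beyond 1 UMI (9782 genes tested) and 2 with at least 40 UMIs. The stricter cell filter (at least 600 genes and at most 10% mitochondrial UMIs) gave 2. Without the MHC class II and the Ccr2 cells the count was 12 and 13, which include the rule markers named above. Leaving out 1 library gave 4 to 10. Size factors from DESeq2 gave 5 in its default form and 10 in its poscounts form, which moved the median log2 fold change of all genes from 0.03 to 0.52. The default was put in place of poscounts as the planned size-factor setting after the results of poscounts had been seen. The settings that leave out MHC class II, Ccr2, Acta2 or the highest cells were also chosen after seeing the data. With the replicate number as a block 9 were called higher and 1 lower, and the crossed pairing gave 9 and 2. The count called lower, 0 in the report, was 1 with DESeq2 size factors, 2 without the filter, 1 with at most 1 microglial marker, 1 without doublet-marked barcodes, 1 without the MHC class II cells, 4 without the Ccr2 cells, 1 without the Acta2 cell, and 1 to 8 on leaving out 1 library. The difference in effect between cell types, with 0 calls in the report, gave 1 with DESeq2, 1 without the filter, 1 with at least 40 UMIs, and 1 each without the MHC class II, Ccr2 or Acta2 cells, and 1 to 4 on leaving out 1 library. Malat1 was the gene called under DESeq2, under the 40 UMI filter and without each of those cell sets. Crip1 was called without the second library with inhibitors, and H2-Aa, H2-Ab1, H2-Eb1 and Malat1 without the first library without inhibitors. The replicate block left the count of such differences at 0.

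The median log2 fold change of the dissociation list, 3.44 in the report, was 2.83 with a prior count of 2, 2.74 with the stricter cell filter, 5.09 with at least 3 macrophage markers, 2.75 without the highest cell of each library without inhibitors, and 2.21 to 3.66 on leaving out 1 library. It stayed positive under all 20 alternatives, most of which kept the filter that in part sets its sign. Signs turned for the share of macrophages without the Ccr2 cells (-0.06 percentage points) and for Myl6, whose log2 fold change became 0.27, 0.35 and 0.25 with the stricter cell filter, at least 3 macrophage markers and no Acta2 cell, and whose difference from microglia became 0.46, 0.51 and 0.35. The highest adjusted p of Fos over the 20 alternatives was 0.0246.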
